A study of Mus musculus with 11 samples.

Results

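The unfolded protein response and the integrated stress response were followed through 10 genes in the embryonic hearts of *Pde2A* knockout and wild-type mice. The members were given by name: *Atf4*, *Atf5*, *Ddit3*, *Asns*, *Trib3*, *Chac1* and *Sesn2* of the integrated stress response, and *Xbp1*, *Hspa5* and *Herpud1* of the unfolded protein response. Each symbol was mapped to an Ensembl identifier, and all 10 were among the 24177 genes that passed the filter on low counts, of 55487 gene identifiers in the count files. RNA was sequenced from 5 *Pde2A*-/- hearts (KO A, B, 14, D and 15) and 6 *Pde2A*+/+ hearts (WT 7, 11, 6, 8, H and E), 1 library per heart. All hearts came from untreated embryos at E14.5 of the B6; 129P2 stock with the tm1Dgen allele, bred from heterozygous parents. The paper used male and female embryos, the sex of each heart is not stated, and the part of sex in the values was not tested. The knockout was not restricted to a cell type, and the comparison asks how the transcripts of whole hearts differ when the phosphodiesterase Pde2A is missing.

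In the integrated stress response, kinases that each sense a different stress phosphorylate the translation factor eIF2, which slows protein synthesis but favours translation of the *Atf4* mRNA. The transcription factor ATF4 then raises genes for amino acid supply, redox control and, through its partner CHOP, encoded by *Ddit3*, cell death, while the phosphatase subunit encoded by *Ppp1r15a* restores eIF2. In the unfolded protein response, sensors in the membrane of the endoplasmic reticulum (ER) detect misfolded protein: PERK, which is one of the eIF2 kinases, IRE1, which splices the *Xbp1* mRNA, and ATF6, which is cut to release a transcription factor. XBP1 and ATF6 raise ER chaperones such as BiP, encoded by *Hspa5*, and the machinery of ER-associated degradation. Phosphorylation, splicing, cleavage and translation are not read by counts of reads per gene.

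*Pde2a* (ENSMUSG00000110195), which lies on chromosome 7 between positions 101421691 and 101512827, gave at most 2 counts per heart and 7 in all. It shares 64.3% of its exon bases with *Gm45837* on the same strand, and reads on both genes were given to neither. Why the rest of its exon bases had so few counts was not tested, and counts this low could not check the genotype labels. Total counts on the gene strand ran from 35865537 to 42835382 per heart, and did not separate KO from WT (p = 0.87 in an exact two-sided permutation test). The share of reads on no single gene had a median of 20.6% in KO and 21.6% in WT hearts (exact permutation test, two-sided, p = 0.026). Cardiomyocyte markers were high in every heart. Their summed level was 35905 to 42795 CPM in KO and 35221 to 46698 CPM in WT hearts, with *Myh7*, the slow myosin heavy chain, as the most abundant of 11. Some single markers differed between the genotypes, as given below. CPM are counts scaled to a common library size after TMM normalization.

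Some of the genes that ATF4 is known to raise were higher in KO hearts, while *Atf4* itself, *Xbp1* and the ER chaperone gene *Hspa5* did not pass the test. *Ddit3*, *Asns*, *Trib3* and *Chac1* rose, *Atf5* fell, and the other 5 members did not pass. A gene passed when its adjusted p was under 0.05 in the edgeR quasi-likelihood test, adjusted by Benjamini-Hochberg over all genes tested. The 4 of 10 members that passed as higher stand beside 8.93% of all genes tested, and the 1 of 10 that passed as lower beside 5.67%. *Trib3* and *Chac1* also changed by at least 2-fold, as did 2.21% of all genes tested in the higher direction. Every KO heart lay above every WT heart for *Ddit3* and *Asns*, 2 of 10 members, against 5.38% of all genes. No member had every KO heart below every WT heart, against 3.11%. Over the members, the log2 fold change had a median of 0.12, beside −0.02 over all genes tested. The median was 0.90 over the 7 members of the integrated stress response and −0.08 over the 3 of the unfolded protein response. The members, and the gene lists below, were chosen with earlier results of these data known. Such shares and medians are therefore no independent evidence.

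**Figure D1:**
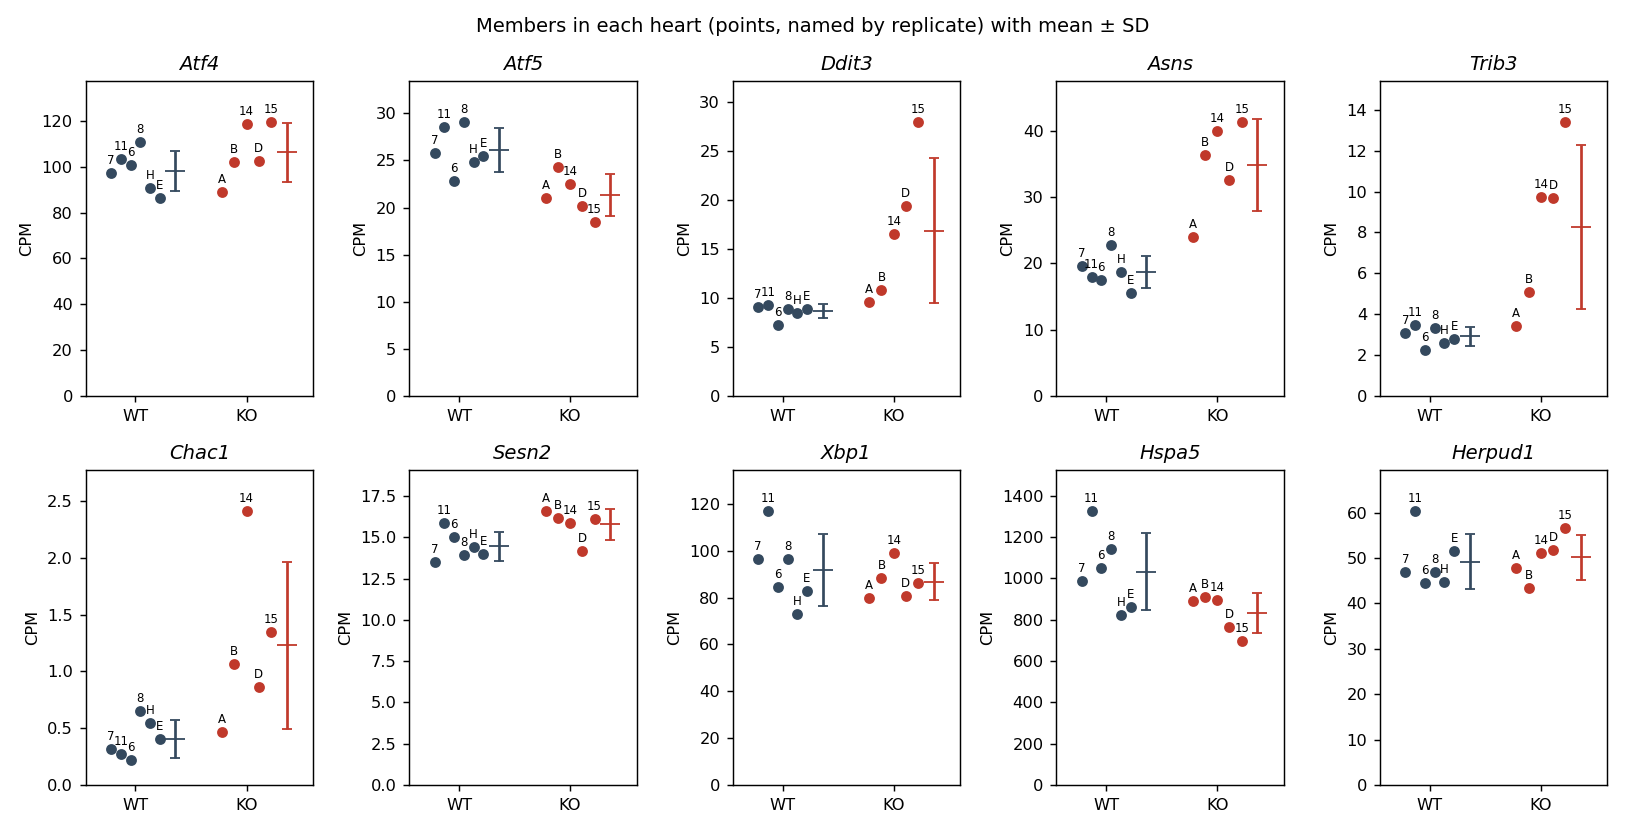
CPM of the 10 members (vertical axes, each from 0) in the 6 WT and 5 KO hearts, 1 point per heart named by its replicate, with the mean and SD beside the points. *Ddit3* and *Asns* do not overlap between the genotypes, *Trib3* and *Chac1* overlap only through KO A, and *Atf4*, *Xbp1* and *Herpud1* overlap widely.

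*Atf4* (ENSMUSG00000042406, on chromosome 15 from 80255184 to 80257541) encodes the transcription factor at the centre of the response. It had 88.9 CPM in KO A, 102 in KO B, 119 in KO 14, 102 in KO D and 119 in KO 15, and a lowest, median and highest value of 86.2, 99.0 and 111 CPM in WT hearts. KO 14 and KO 15 lay above every WT heart, and the other 3 KO hearts lay inside the WT range. The log2 fold change, KO over WT, was 0.12 ± 0.08 (SE; adjusted p = 0.379, edgeR quasi-likelihood test, Benjamini-Hochberg adjusted), with a 95% interval of −0.06 to 0.29. With the naming style of the replicates as a covariate it was 0.18, and the gene passed (adjusted p = 0.0382, same test; 0.0382 to 0.643 over all alternatives).

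Of 16 genes for the eIF2 kinases and the control of eIF2, 3 rose and none fell in edgeR (1 at an unadjusted p under 0.05 and 0 in DESeq2), and their median log2 fold change was 0.01, against −0.02 over all genes tested. *Ppp1r15a*, which encodes the stress-induced phosphatase subunit GADD34, had 42.3 CPM in KO A, 54.7 in KO B, 51.1 in KO 14, 52.0 in KO D and 60.7 in KO 15. Its WT hearts had a lowest, median and highest value of 25.0, 27.5 and 31.3 CPM, so the genotypes did not overlap, and the log2 fold change was 0.92 ± 0.08 (adjusted p = 1.64e-05, edgeR quasi-likelihood test, Benjamini-Hochberg adjusted). Its constitutive counterpart *Ppp1r15b* did not pass, at 0.11 ± 0.05. *Eif2ak2*, the double-stranded RNA sensor PKR, rose by 0.66 ± 0.09 on the log2 scale (adjusted p = 4.87e-04, same edgeR test), and *Eif2ak1*, the haem-regulated kinase, rose by 0.38 ± 0.05 (adjusted p = 6.37e-04, same edgeR test). Both were highest in KO B, and for both every KO heart lay above every WT heart. *Eif2ak3*, which encodes PERK, and *Eif2ak4*, which encodes the amino acid sensor GCN2, did not pass, with log2 fold changes of 0.14 ± 0.06 and 0.00108 ± 0.06. The 8 subunits of eIF2 and its exchange factor eIF2B on the list did not pass either.

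Interferon-induced and erythroid genes were read beside the kinases that rose. Of 8 interferon-induced genes, a class to which *Eif2ak2* also belongs, all 8 passed as higher, and their summed level was 67.6 CPM in KO A, 178 in KO B, 160.5 in KO 14, 127 in KO D and 195 in KO 15, and 21.1, 25.2 and 31.6 CPM as the lowest, median and highest of the WT hearts. None of the 8 was at 0 in every heart. Of 9 erythroid genes tested, 8 passed as higher and none was at 0 in every heart, while *Alas2*, named after its value was seen, did not pass. By mean CPM, *Slc4a1* was the most abundant over all hearts and in KO hearts, and *Alas2* in WT hearts (189 against 54.2 CPM). The summed level of the 9 genes was 476 CPM in KO A, 968 in KO B, 778 in KO 14, 727 in KO D and 792 in KO 15, and 108, 248 and 491 CPM as the lowest, median and highest of the WT hearts. *Alas2* alone had 89.1 CPM in KO A, 159 in KO B, 113 in KO 14, 135 in KO D and 125 in KO 15, and 77.0, 169 and 359.6 CPM as the lowest, median and highest of the WT hearts, and it made up the larger part of the sum in every WT heart. Each of the other 8 had every KO heart above every WT heart. *Eif2ak2* had 42.5 CPM in KO A, 59.9 in KO B, 49.9 in KO 14, 39.6 in KO D and 47.9 in KO 15. It was highest in KO B and lowest in KO D among KO hearts, whereas the sum of the interferon-induced genes was highest in KO 15 and lowest in KO A. KO B, the highest heart for *Eif2ak1*, was the highest KO heart for all 9 erythroid genes. The other KO hearts had 64.3 to 66.4 CPM of *Eif2ak1*, while their erythroid sums ran from 476 to 792 CPM. The part of either list in the values of the kinases was not tested. A change in the number of cells of a type and a change in RNA per cell cannot be told apart in whole hearts.

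*Ddit3* (ENSMUSG00000025408, on chromosome 10 from 127290774 to 127296288) encodes CHOP, which takes part in cell death under lasting stress. It had 9.60 CPM in KO A, 10.8 in KO B, 16.6 in KO 14, 19.4 in KO D and 28.0 in KO 15, and WT hearts had a lowest, median and highest value of 7.32, 8.88 and 9.32 CPM. All KO hearts lay above all WT hearts, KO A and KO B only slightly so, and KO 15 stood highest. Means were 16.9 ± 7.41 CPM (SD, n = 5) in KO and 8.67 ± 0.716 CPM (SD, n = 6) in WT hearts, with a log2 fold change of 0.96 ± 0.22 (adjusted p = 0.0147, edgeR quasi-likelihood test, Benjamini-Hochberg adjusted). Left out in turn, no single heart ended the call, and the lowest log2 fold change was 0.71, without KO 15.

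*Trib3* (ENSMUSG00000032715, on chromosome 2 from 152337422 to 152344032) encodes a pseudokinase that is induced by ATF4 and CHOP and restrains them. It had 3.44 CPM in KO A, 5.07 in KO B, 9.73 in KO 14, 9.66 in KO D and 13.4 in KO 15, and WT hearts had a lowest, median and highest value of 2.27, 2.94 and 3.48 CPM. KO A lay inside the WT range, and the other 4 KO hearts lay above it. Means were 8.26 ± 3.99 CPM (SD, n = 5) in KO and 2.92 ± 0.459 CPM (SD, n = 6) in WT hearts, with a log2 fold change of 1.50 ± 0.28 (adjusted p = 0.00479, edgeR quasi-likelihood test, Benjamini-Hochberg adjusted), or 2.82-fold.

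*Chac1* (ENSMUSG00000027313, on chromosome 2 from 119351229 to 119354381) encodes an enzyme that breaks down glutathione. It was scarce, at 8 to 97 counts per heart. It had 0.470 CPM in KO A, 1.06 in KO B, 2.41 in KO 14, 0.860 in KO D and 1.35 in KO 15, and WT hearts had a lowest, median and highest value of 0.219, 0.361 and 0.653 CPM. KO 14 was the highest KO heart and KO A lay inside the WT range. The log2 fold change was 1.60 ± 0.39 (adjusted p = 0.0173, edgeR quasi-likelihood test, Benjamini-Hochberg adjusted). Without KO 14 it was 1.21, and the gene no longer passed (adjusted p = 0.0513, same test). The adjusted p (edgeR quasi-likelihood test, Benjamini-Hochberg adjusted) ranged from 0.00357 to 0.0513 over the hearts left out in turn.

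*Asns* (ENSMUSG00000029752, on chromosome 6 from 7675169 to 7693254) encodes asparagine synthetase, a classic target of ATF4. It had 24.0 CPM in KO A, 36.3 in KO B, 40.0 in KO 14, 32.6 in KO D and 41.3 in KO 15, and WT hearts had a lowest, median and highest value of 15.6, 18.3 and 22.8 CPM. KO A lay just above the highest WT heart, WT 8, and the other 4 KO hearts lay well above it. Means were 34.8 ± 6.94 CPM (SD, n = 5) in KO and 18.7 ± 2.43 CPM (SD, n = 6) in WT hearts, with a log2 fold change of 0.90 ± 0.13 (adjusted p = 7.01e-04, edgeR quasi-likelihood test, Benjamini-Hochberg adjusted). Left out in turn, no heart ended the call, and the log2 fold change stayed between 0.83 and 1.01.

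Of 18 further ATF4 target genes of amino acid uptake and synthesis, 6 passed as higher and 3 as lower, with a median log2 fold change of 0.19. The 6 were the glycine transporter *Slc6a9* at 0.88 ± 0.10, the mitochondrial folate enzymes *Mthfd1l* at 0.83 ± 0.17 and *Shmt2* at 0.54 ± 0.13, and the transporter genes *Slc1a5*, *Slc3a2* and *Slc7a1*, the last 3 named after their values were seen. The adjusted p of the first 3 were 1.55e-04, 0.00827 and 0.0148 (edgeR quasi-likelihood test, Benjamini-Hochberg adjusted). *Slc6a9* had no overlap between the genotypes and was highest in KO B, whereas *Mthfd1l* and *Shmt2* were highest in KO 15 and had KO A inside the WT range. The 3 that passed as lower were *Phgdh*, *Psat1* and *Psph*, which together make serine from a glycolytic intermediate. They were also named after their values were seen, with log2 fold changes of −0.39 ± 0.11, −0.40 ± 0.09 and −0.25 ± 0.06. For each of them 4 of 5 KO hearts lay below every WT heart. Of the 6 genes named after their values were seen, *Slc1a5* and *Psat1* passed under all 18 alternatives. *Slc3a2* lost its call without KO D (0.44), and *Psph* without KO D (−0.25) or KO 15 (−0.22). *Phgdh* lost its call under 7 alternatives and *Slc7a1* under 5, with an adjusted p of up to 0.0944 and 0.0614 (same edgeR test). Without KO D, the list held 1 gene that passed as lower. The cystine transporter gene *Slc7a11*, a well known target also named after its value was seen, did not pass, at 0.18 ± 0.21.

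Of 13 genes for aminoacyl-tRNA synthetases and the tRNA exporter *Xpot*, many of which ATF4 can raise, 1 passed in each direction, and the median log2 fold change was −0.06. *Sars*, for seryl-tRNA, rose by 0.30 ± 0.07 on the log2 scale (adjusted p = 0.0176, edgeR quasi-likelihood test, Benjamini-Hochberg adjusted) and did not pass without KO 14 (0.28, adjusted p = 0.0515, same edgeR test; 0.00159 to 0.0515 over all alternatives). *Wars*, for tryptophanyl-tRNA, had a log2 fold change of −0.34 ± 0.10 (adjusted p = 0.0409, same edgeR test) and lost its call when any of 8 hearts was left out.

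Of 16 other ATF4 and CHOP target genes tested, 8 passed as higher and none as lower in edgeR (0 at an unadjusted p under 0.05 and 0 in DESeq2), and all 16 had a log2 fold change above 0, with a median of 0.40. *Stc2*, which encodes a secreted glycoprotein, had 17.5 CPM in KO A, 26.8 in KO B, 50.5 in KO 14, 51.5 in KO D and 63.9 in KO 15, and WT hearts had a lowest, median and highest value of 15.1, 15.5 and 18.3 CPM. *Ero1l*, which encodes an ER oxidase that drives disulphide formation, had 46.3 CPM in KO A, 57.7 in KO B, 112 in KO 14, 124 in KO D and 175 in KO 15, and WT hearts had 38.8, 40.7 and 45.5 CPM. Both rose by more than 2-fold, were highest in KO 15 and lowest in KO A, and only *Stc2* had KO A inside the WT range. Their log2 fold changes were 1.38 ± 0.25 and 1.32 ± 0.26 (adjusted p = 0.00424 and 0.00684, edgeR quasi-likelihood test, Benjamini-Hochberg adjusted). *Ddit4*, an inhibitor of mTORC1, rose by 0.69 ± 0.17 (adjusted p = 0.0191, same edgeR test), but did not pass without KO D (0.58, adjusted p = 0.0612) or KO 15 (0.59, adjusted p = 0.0559; 0.00103 to 0.0612 over all alternatives). The secreted stress factor *Gdf15* rose by 0.80 ± 0.19 (adjusted p = 0.0165, same edgeR test) and did not pass without KO D (0.71, adjusted p = 0.0509; 0.00102 to 0.0509 over all alternatives). Without KO D, the list held 3 genes that passed as higher. *Atf3* and *Nupr1*, transcriptional regulators that often follow *Ddit3*, did not pass, at 0.07 ± 0.25 and 0.19 ± 0.21. *Fgf21* had 7 counts over all hearts and was not tested. Whether ATF4 or CHOP raised the genes of this list was not tested.

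*Atf5* (ENSMUSG00000038539, on chromosome 7 from 44812256 to 44816658), whose mRNA is translated under stress much as that of *Atf4* is, was the only member that passed as lower. It had 21.1 CPM in KO A, 24.3 in KO B, 22.5 in KO 14, 20.2 in KO D and 18.4 in KO 15, and WT hearts had a lowest, median and highest value of 22.9, 25.6 and 29.1 CPM. KO B lay inside the WT range and the other 4 KO hearts lay below it. The log2 fold change was −0.29 ± 0.08 (adjusted p = 0.0299, edgeR quasi-likelihood test, Benjamini-Hochberg adjusted). The call was lost without KO 14 (−0.31), KO D (−0.27), KO 15 (−0.24), WT 11 (−0.27) or WT 8 (−0.26), and the adjusted p ranged from 0.0129 to 0.0833 over the hearts left out in turn (edgeR quasi-likelihood test, Benjamini-Hochberg adjusted).

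*Sesn2* (ENSMUSG00000028893, on chromosome 4 from 132492032 to 132510501), which encodes a leucine sensor upstream of mTORC1, ranged from 14.2 to 16.6 CPM in KO and from 13.5 to 15.9 CPM in WT hearts. KO D lay inside the WT range and the other 4 KO hearts lay above it, by little. The log2 fold change was 0.13 ± 0.06 and did not pass (adjusted p = 0.181, edgeR quasi-likelihood test, Benjamini-Hochberg adjusted), with a 95% interval of −0.01 to 0.26.

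**Figure D2:**
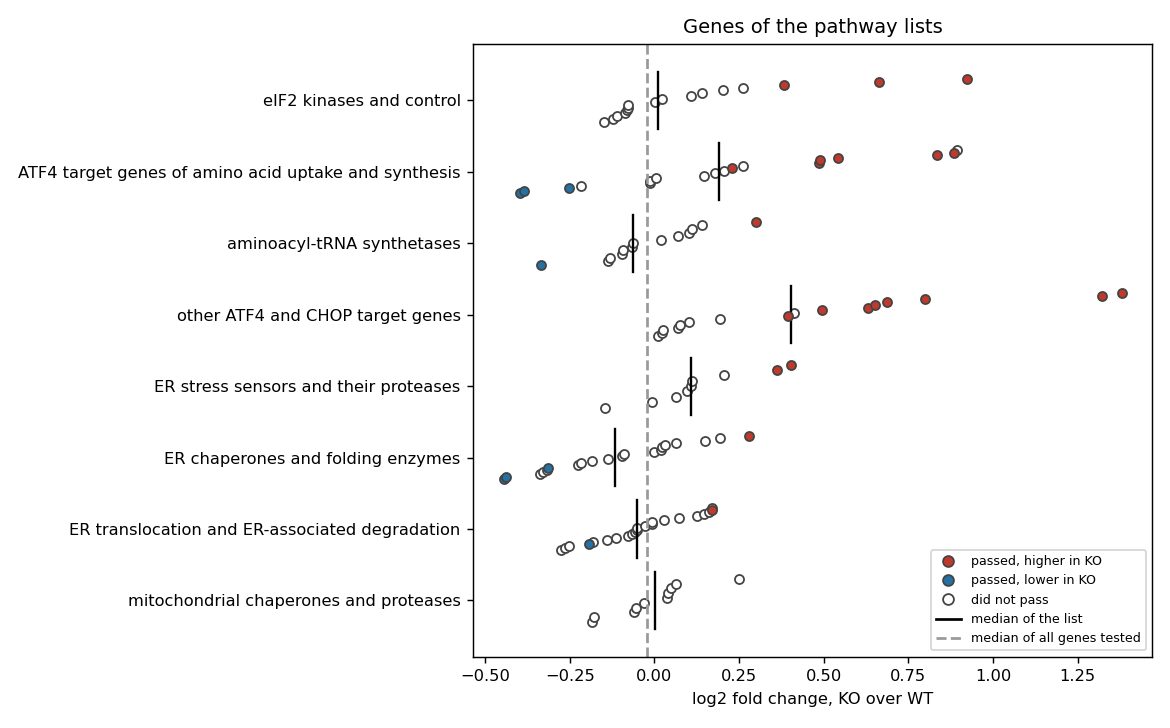
Log2 fold change, KO over WT (horizontal axis), of each gene tested in the 8 pathway lists (vertical axis), filled where the gene passed, with the median of each list as a bar and that of all genes tested as a dashed line. The genes furthest to the right are *Stc2* and *Ero1l* among the other ATF4 and CHOP target genes, and the lists of the ER lie around 0.

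*Hspa5* (ENSMUSG00000026864, on chromosome 2 from 34771970 to 34777547) encodes BiP, the main ER chaperone. It had 892 CPM in KO A, 908 in KO B, 896 in KO 14, 766 in KO D and 698 in KO 15, and WT hearts had a lowest, median and highest value of 821, 1019 and 1326 CPM. KO D and KO 15 lay below every WT heart, the other 3 KO hearts lay within the lower part of the WT range, and WT 11 stood highest. Means were 832 ± 94.7 CPM (SD, n = 5) in KO and 1031 ± 187 CPM (SD, n = 6) in WT hearts, with a log2 fold change of −0.31 ± 0.12 that did not pass (adjusted p = 0.0910, edgeR quasi-likelihood test, Benjamini-Hochberg adjusted) and a 95% interval of −0.56 to −0.06. It passed with DESeq2 in place of edgeR, at −0.31 (Benjamini-Hochberg adjusted p = 0.0418; 0.0418 to 0.214 over all alternatives).

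*Xbp1* (ENSMUSG00000020484, on chromosome 11 from 5520659 to 5525893), the transcription factor downstream of IRE1, ranged from 79.8 to 99.2 CPM in KO and from 73.1 to 117 CPM in WT hearts. *Herpud1* (ENSMUSG00000031770, on chromosome 8 from 94386438 to 94395377), a component of ER-associated degradation, ranged from 43.4 to 56.6 CPM in KO and from 44.6 to 60.4 CPM in WT hearts. The genotypes overlapped for both, and WT 11 was the highest heart of all for both. Their log2 fold changes were −0.08 ± 0.10 and 0.03 ± 0.09 (adjusted p = 0.663 and 0.875, edgeR quasi-likelihood test, Benjamini-Hochberg adjusted), with 95% intervals of −0.30 to 0.14 and −0.16 to 0.21. Spliced and unspliced *Xbp1* are counted together.

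Of 20 ER chaperones and folding enzymes, 1 passed as higher and 3 as lower, and the median log2 fold change was −0.12. The 3 were *Manf*, a secreted protein of the ER, at −0.44 ± 0.12, *Creld2* at −0.44 ± 0.14 and the BiP co-chaperone *Dnajc3* at −0.31 ± 0.10 (adjusted p = 0.0235, 0.0462 and 0.0485, edgeR quasi-likelihood test, Benjamini-Hochberg adjusted). All 3 were lowest in KO 15. *Manf* lost its call without KO D, KO 15 or WT 8, with an adjusted p of at most 0.0629 over the hearts left out, and *Creld2* and *Dnajc3* each lost theirs when any of 7 hearts was left out (up to 0.123 and 0.124, all from edgeR's quasi-likelihood test). These 2 also lost their calls with naming style as a covariate, at −0.38 and −0.29 (adjusted p = 0.0847 and 0.0817, same edgeR test). *Sil1*, a nucleotide exchange factor of BiP named after its value was seen, was the gene that passed as higher, at 0.28 ± 0.07 (adjusted p = 0.0169, same edgeR test). It did not pass without KO D (0.27, adjusted p = 0.0517; 0.00181 to 0.0517 over all alternatives), so all 4 calls of the list were lost without that heart. In DESeq2 1 gene of the list passed as higher and 5 as lower. The summed level of the list was 5158 CPM in KO A, 5398 in KO B, 5485 in KO 14, 5342 in KO D and 5029 in KO 15, and 4886, 5337 and 6123 CPM as the lowest, median and highest of the WT hearts. The genotypes overlapped in it, and WT 11 was highest.

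Of 9 ER stress sensors and their proteases tested, 2 passed as higher and none as lower in edgeR (0 at an unadjusted p under 0.05 and 0 in DESeq2), with a median of 0.11. *Atf6* had 83.2 CPM in KO A, 87.8 in KO B, 99.99 in KO 14, 108 in KO D and 114 in KO 15, all above the highest WT heart at 78.0 CPM, with a log2 fold change of 0.40 ± 0.07 (adjusted p = 0.00432, edgeR quasi-likelihood test, Benjamini-Hochberg adjusted). *Creb3l2*, a related membrane-bound factor, rose by 0.36 ± 0.08 on the log2 scale (adjusted p = 0.0151, same edgeR test). *Ern1*, which encodes IRE1, did not pass, at 0.11 ± 0.07. Of 22 genes for ER translocation and ER-associated degradation, 1 passed in each direction: the translocon component *Sec63* at 0.17 ± 0.05 and the ATPase *Vcp* at −0.19 ± 0.06, with adjusted p of 0.0460 and 0.0483 (edgeR quasi-likelihood test, Benjamini-Hochberg adjusted). Left out in turn, 9 hearts ended the call of *Sec63* and 8 that of *Vcp*, and both were lost without a filter on low counts (adjusted p = 0.0592 and 0.0595, same edgeR test; up to 0.109 and 0.118 over the hearts left out). At an unadjusted p under 0.05 there were 5 higher and 3 lower, in DESeq2 4 passed as higher and 2 as lower, and without KO A 5 passed as higher and 3 as lower. The median of that list was −0.05. None of 10 mitochondrial chaperones and proteases passed in edgeR. At an unadjusted p under 0.05 there were 1 higher and 2 lower, and in DESeq2 1 passed as higher and 2 as lower. Their median was 0.00284.

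Levels were compared between members as RPKM, the CPM per kilobase of exon. *Hspa5* was the highest at 197 ± 22.4 in KO and 244 ± 44.3 in WT hearts (SD, n = 5 and n = 6), followed by *Atf4* at 45.1 ± 5.45 in KO and 41.6 ± 3.72 in WT, *Xbp1* at 26.7 ± 2.41 in KO and 28.2 ± 4.70 in WT and *Herpud1* at 21.5 ± 2.09 in KO and 21.1 ± 2.58 in WT hearts. *Atf5* had 10.7 ± 1.12 in KO and 13.1 ± 1.18 in WT, *Asns* 12.7 ± 2.54 in KO and 6.83 ± 0.889 in WT and *Ddit3* 10.5 ± 4.61 in KO and 5.39 ± 0.445 in WT hearts. *Atf5* stood above both other genes in WT hearts, while the 3 did not differ beyond their spread in KO hearts. *Sesn2* had 4.54 ± 0.270 in KO and 4.16 ± 0.249 in WT, *Trib3* 3.89 ± 1.88 in KO and 1.38 ± 0.216 in WT and *Chac1* 0.752 ± 0.449 in KO and 0.246 ± 0.103 in WT hearts. *Sesn2* and *Trib3* were apart in WT hearts by more than their spread and not in KO hearts. The spread among KO hearts was 43.9% of the mean for *Ddit3*, 48.3% for *Trib3* and 59.7% for *Chac1*, against 8.26%, 15.7% and 42.0% among WT hearts.

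The KO hearts were unequal in these genes. KO A was the lowest KO heart for all 4 members that rose and for 19 of the 22 genes of the pathway lists that passed as higher. KO 15 was the highest KO heart for 3 of the 4 members, *Chac1* being highest in KO 14, and for 14 of the 22 genes. Of the 8 genes of the pathway lists that passed as lower, 6 were lowest in KO 15. Of 10 hypoxia-induced genes, 9 passed as higher, *Car9*, named after its value was seen, did not, and all 10 were lowest in KO A and highest in KO 15 among KO hearts. Their summed level was 1046 CPM in KO A, 1396 in KO B, 2196 in KO 14, 2468 in KO D and 3103 in KO 15, and 899.9, 961 and 1061 CPM as the lowest, median and highest of the WT hearts. KO A lay inside the WT range of that sum and the other 4 KO hearts lay above it. None of the 10 was at 0 in every heart, and *Pdk1* was the most abundant by mean CPM over all hearts. In KO hearts *Slc2a1*, named after its value was seen, had a higher mean than *Pdk1*, 562 against 514 CPM. KO A was also the lowest KO heart in the sums of the interferon-induced, erythroid and macrophage genes. *Ddit3*, *Stc2*, *Ero1l* and *Atf6* had the same order of KO hearts as the sum of the hypoxia-induced genes. The order was not particular to them. Further genes of the pathway lists had it, among them *Slc3a2*, *Sqstm1*, *Vldlr*, *Tnfrsf10b*, *Bbc3* and *Mbtps2*, named after their values were seen. *Bbc3* and *Mbtps2* did not pass. *Trib3* differed from that order only in KO 14 and KO D, which were nearly level at 9.73 and 9.66 CPM, and *Asns* and *Chac1* had other orders. The part of any of these lists in the values of the members was not tested.

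**Figure D3:**
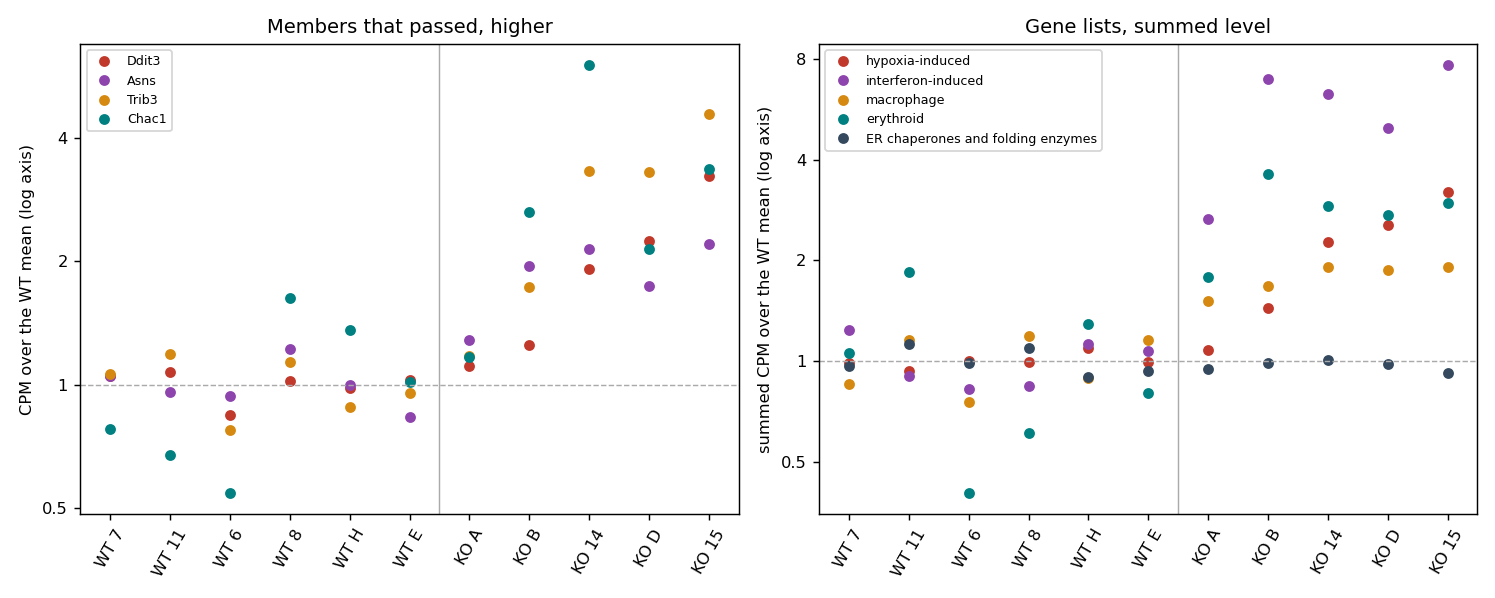
Left, CPM of *Ddit3*, *Asns*, *Trib3* and *Chac1* in each heart over the WT mean of the gene. Right, summed CPM of 5 gene lists in each heart over the WT mean of the list; horizontal axes name the hearts and vertical axes are log axes without unit. KO A lies nearest to the WT hearts for the 4 members and for the hypoxia-induced, interferon-induced, macrophage and erythroid genes, and the ER chaperones stay near 1 in every heart. The erythroid sum includes *Alas2*, which did not pass.

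Markers of other cell types were read in the same hearts. Of 8 macrophage genes, 7 passed as higher, with *Csf1r* as the most abundant and none at 0 in every heart. Their summed level was 204 CPM in KO A, 225 in KO B, 257 in KO 14, 252 in KO D and 256 in KO 15, and 102, 137 and 160.3 CPM as the lowest, median and highest of the WT hearts. Of 6 endothelial genes 2 passed as higher, and of 7 fibroblast genes 2 passed as higher, with *Cdh5* and *Col3a1*, which did not pass, as the most abundant. Of 11 cardiomyocyte genes 1 passed as higher and 3 as lower, and 8 had a log2 fold change below 0. The 3 were *Tnni1*, *Tnnc1* and *Nkx2-5*, named after their values were seen. Each of the 3 had every KO heart below every WT heart, against 3.11% of all genes. In DESeq2 1 cardiomyocyte gene passed as higher and 5 as lower. Of 8 hepatocyte genes none passed in edgeR (at an unadjusted p under 0.05, 0 higher and 3 lower, and in DESeq2, 0 higher and 0 lower), and *Afp* was the most abundant by mean CPM over all hearts. Their summed level was 44.0 CPM in KO D, 45.0 in WT 11, 39.9 in WT H and 119.7 in WT E, and at most 6.36 CPM in the other 7 hearts. In those 7 hearts *Ahsg*, named after its value was seen, lay above *Afp*, and its mean over KO hearts was higher, 4.80 against 4.46 CPM. The part of these lists in the values of the members was not tested.

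Replicates are named by letters or by numbers, and no batch is stated. Among the letters, 3 KO hearts against 2 WT hearts, the log2 ratio of mean CPM was 0.61 for *Ddit3*, 0.86 for *Asns*, 1.17 for *Trib3* and 0.74 for *Chac1*. Among the numbers, 2 KO hearts against 4 WT hearts, it was 1.37, 1.06, 1.93 and 2.37. These 4 members passed over the same hearts, so a shared direction of the ratios is no independent evidence. For *Chac1* the genotypes overlapped among the letters. For *Atf4*, which passed with naming style as a covariate, the ratios were 0.15 among the letters, with overlap, and 0.21 among the numbers. For *Atf5* the ratios were −0.20 and −0.38. For *Hspa5* they were 0.03 among the letters, with overlap, and −0.50 among the numbers.

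Promoter windows from 250 bases before to 50 after the start of each gene, from RefSeq on GRCm38.p6, were searched because 4 members rose together. All 10 members matched, *Atf5* with 2 windows. The C/EBP-ATF element TGATGNAA, the kind of site that ATF4 binds with C/EBP partners, was found on either strand in the windows of *Asns*, *Trib3*, *Chac1* and *Herpud1*, against 1304 of 32851 windows of all genes (3.97%). The ER stress element, CCAAT and CCACG with 9 bases between, was found in that of *Hspa5*, against 39 windows of all genes (0.119%). The cAMP response element TGACGTCA (1.79% of all windows) and the element TGACGTGG (0.676%) were in no window of a member. The stretches are given in the direction of each gene with the match in capitals, which for *Trib3*, *Chac1* and *Herpud1* is the element on the opposite strand. That of *Asns* lies at chr6:7693214-7693243 on the − strand and starts its match 23 bases before the RefSeq start, inside an exon of GENCODE. That of *Trib3* lies at chr2:152344028-152344057 on the − strand, with the match from base 15 after the RefSeq start, outside the GENCODE exons. That of *Chac1* lies at chr2:119351023-119351082 and that of *Herpud1* at chr8:94386291-94386350, both on the + strand, with the match from 193 and 112 bases before the start. That of *Hspa5* lies at chr2:34772020-34772049 on the + strand, with the match from 65 bases before the RefSeq start, inside an exon of GENCODE. A match is no evidence of binding, and *Herpud1* carried the element without passing while *Ddit3* passed without it in this window.
Asns: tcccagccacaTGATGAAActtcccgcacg
Trib3: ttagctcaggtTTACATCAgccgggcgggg
Chac1: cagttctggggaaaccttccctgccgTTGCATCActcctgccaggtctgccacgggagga
Herpud1: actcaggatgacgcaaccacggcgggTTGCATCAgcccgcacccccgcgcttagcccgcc
Hspa5: cttcaCCAATCGGAGGCCTCCACGacgggg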

How the data were processed

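The authors sequenced stranded poly(A) libraries in single-end mode and mapped the reads to GRCm38 with STAR, per the labels and the paper's methods, and deposited whole-number counts per gene without normalization. Reads counted on the strand of the gene were used, and reads on more than 1 gene are in no count. Symbols came from GENCODE M21, which named 55141 of 55487 identifiers. *Ddit3* has a second identifier, without counts, that shares 6.13% of its exon bases. *Ahsp* was not analysed here.

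A gene needed 10 counts or more, summed over the 11 hearts. After TMM normalization, KO and WT hearts were compared by edgeR 4.0.16 (R 4.3.3), using the quasi-likelihood test without covariates and Benjamini-Hochberg adjustment over 24177 genes. SE was the log2 fold change over the square root of F. The common biological coefficient of variation was 16.8%, and at low counts, as for *Chac1*, counting error can exceed it. The alternatives were DESeq2 1.42.0, DESeq2 size factors, other filters, both strands, globin genes left out, naming style as a covariate, and each heart left out. On simulated data with known answers edgeR kept its wrong calls near the share its threshold allows, whereas DESeq2 exceeded that share. Whether the excess came from the simulation, which used dispersions estimated by edgeR, or from DESeq2 was not worked out, and the limit on wrong calls, first set for both tools, was kept for edgeR alone after this was seen.

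RPKM used exon bases not shared on the same strand. Named genes were the members, *Pde2a*, the eIF2 kinases, *Ppp1r15a*, *Ppp1r15b*, *Ern1*, *Atf6*, *Atf3*, *Ddit4*, *Gdf15*, *Fgf21*, *Nupr1*, up to 3 genes per pathway list with the largest passing change and a mean of at least 1 CPM, and the most abundant gene of each marker list by mean CPM over all hearts. For the interferon-induced list that gene is not reported here. The 8 pathway lists and 8 marker lists were written by hand, and members and lists were chosen with earlier results of these data known. Tables and plots used Python 3.11.15, pandas 2.3.3, numpy 2.4.6, scipy 1.17.1 and matplotlib 3.10.9.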

Additional observations from a re-analysis of the deposited data

Results flagged for a closer look

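In 2 of 70 groups examined (35 named genes in each genotype), 1 heart stood far from the others of its genotype on the log2 scale, and chance alone marks about 5% of groups. *Eif2ak1* had 77.6 CPM in KO B, against 64.3 to 66.4 CPM in the other KO hearts. *Sesn2* had 14.2 CPM in KO D, against 15.9 to 16.6 CPM in the other KO hearts. The cause was not tested in either case.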

How the results depend on the processing

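No paired analysis was possible because the replicate names of KO and WT hearts share none. *Ddit3*, *Asns* and *Trib3* passed as higher under every alternative, leaving out each heart included, and *Chac1* under all but the omission of KO 14. The cause of the changes below was not tested.

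With DESeq2, 2354 genes passed as lower (1372 with edgeR) and 57 of them were called at 2-fold (90 with edgeR), 2 members passed as lower, 5 ER chaperones passed as lower, 4 genes of ER translocation and degradation as higher and 2 as lower, and 1 mitochondrial chaperone as higher and 2 as lower. With edgeR's filterByExpr, 37 genes were called at 2-fold as lower, 2 genes of ER translocation and degradation passed in each direction, and 1 mitochondrial gene passed as higher and 2 as lower. Without a filter, 0 genes of ER translocation and degradation passed in either direction. With naming style as a covariate, 2 ER chaperones passed as higher and 1 as lower, 3 genes of ER translocation and degradation as higher and 2 as lower, and 1 mitochondrial gene as higher. Without a limit on the fold change, 2160 genes were called as higher and 1372 as lower, against 535 and 90. The log2 fold change of *Eif2ak4* turned to −0.0041 with filterByExpr, still without passing.

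Leaving out each heart in turn gave 1288 to 2887 genes passing as higher and 414 to 2165 as lower, 396 to 675 called at 2-fold as higher and 35 to 137 as lower. Of the members, 3 to 4 passed as higher and 0 to 1 as lower. The ATF4 targets of amino acid supply had 5 to 8 higher and 1 to 3 lower, the synthetases 0 to 2 higher and 0 to 1 lower, the other ATF4 and CHOP targets 3 to 8 higher, the sensors 2 to 3 higher, the ER chaperones 0 to 2 higher and 0 to 5 lower, ER translocation and degradation 0 to 5 higher and 0 to 3 lower, and the mitochondrial genes 0 to 1 higher and 0 to 2 lower. Signs turned only in genes that did not pass, with log2 fold changes of −0.044 to 0.028 for *Eif2ak4*, −0.10 to 0.22 for *Atf3*, −0.017 to 0.094 for *Herpud1* and −0.13 to 0.0028 for *Xbp1*. *Chac1* had 8 to 97 counts per heart, so its values carry the most counting error of the members.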

Other observations

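Reads on the strand opposite to *Ddit3*, with which *Mars* shares 68 exon bases, numbered 94 to 131 in KO and 100 to 168 in WT hearts, against 267 to 1016 counts on its own strand. KO 15, the highest heart for *Ddit3*, had the fewest opposite-strand reads.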
